A study of Mus musculus with 6 samples.

Results

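The 9 genes described here encode 7 myosin light chains (Myl1, Myl2, Myl3, Myl4, Myl6, Myl6b and Mylpf) and 2 myosin light chain kinases (Mylk and Mylk2), measured in mouse tibialis anterior muscle. They were taken by name: a probe set was included if its only gene symbol in the platform annotation was one of these 9. All 9 genes were measured, by 14 of the 35557 probe sets on the array, 6 of which belong to Myl6; they are 9 of the 19938 genes with a probe set of their own. Where a gene had several probe sets, its brightest one on average was used for the gene and the others are given beside it.

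Whole muscle was profiled on 6 Affymetrix arrays. Of these, 3 are labelled as control C57Bl6J mice and 3 as MLC-SOCS-3 transgenic mice on C57Bl6J. All the mice were 11 weeks old and had been starved for 6 h, and the arrays of both groups were hybridised with biotinylated cRNA made from 300 ng of total RNA. The transgene encodes SOCS-3, an intracellular inhibitor of cytokine and insulin signalling, and the comparison asks how its presence in muscle relates to transcript levels. MLC is the common abbreviation of myosin light chain, whose control sequences are widely used to drive transgenes in skeletal muscle fibres; the labels do not say which sequences the transgene carries. They also do not say whether replicates are separate animals or how many founder lines were used, so p-values measure the spread between these arrays, which may be technical.

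Each value is a log2 intensity, so a difference of 1 is a 2-fold difference. Intensities of different probe sets depend on their probes, and a level is therefore set only against 5.99, the mean intensity of the median probe set. The transgenic label did not go with a higher Socs3 signal: its brighter probe set read 7.37, 7.41 and 7.43 in the controls and 7.07, 7.12 and 7.25 on the labelled transgenic arrays. The other read 6.46, 6.40 and 6.23 in the controls and 6.15, 6.15 and 6.12 on the labelled transgenic arrays. Both were lower on all 3 of these arrays, as were 7.76% of all genes, and neither passed (limma, adjusted p = 0.80 and 0.82). Whether the Socs3 probes lie in the transgene is not stated in the sources used here, so every direction below holds for the arrays as labelled. The markers of the labelled tissue were bright: all 8 skeletal fibre markers, among them Acta1, Ckm and Ttn, had means between 12.9 and 14.6. The data come from bulk tissue, where fewer cells of a type and less RNA per cell cannot be told apart.

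Myosin, the motor of the thick filament, consists of a pair of heavy chains whose lever arms each bind an essential and a regulatory light chain. Fast fibres, which make up most of the tibialis anterior of the mouse, use the essential chain Myl1 and the regulatory chain Mylpf, whereas slow fibres and the ventricle of the heart use Myl3 and Myl2. Myl4 is the essential chain of embryonic muscle and of the atrium, and Myl6 and Myl6b serve smooth muscle and non-muscle myosins. Calcium and calmodulin activate the kinases, Mylk2 in skeletal muscle and Mylk in smooth muscle and other tissues, which phosphorylate the regulatory chain; in skeletal muscle this potentiates twitch force.

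The sequences before 3 of the sarcomeric light chain genes are shown because the values below contrast them, Myl1 and Mylpf as the pair of fast fibres and Myl3 as a slow chain that varied widely between arrays. RefSeq promoter windows (GRCm38.p6) were found for 8 of the 9 genes, and each sequence gives the 250 bases before an annotated start, 5′ to 3′ on the strand of the gene. Capitals mark matches on either strand to the E-box CANNTG, which myogenic factors of the MyoD family bind, to TATAAA, to the MEF2 motif or to the CArG box, which serum response factor binds. The Myl1 window lies at chr1:66945057-66945306 on the minus strand, the Mylpf window at chr7:127211358-127211607 on the plus strand and the Myl3 window at chr9:110763428-110763677 on the plus strand. The windows of Myl1 and Mylpf lie inside the annotated gene, whose span begins further upstream, and that of Myl3 lies just outside it.
Myl1: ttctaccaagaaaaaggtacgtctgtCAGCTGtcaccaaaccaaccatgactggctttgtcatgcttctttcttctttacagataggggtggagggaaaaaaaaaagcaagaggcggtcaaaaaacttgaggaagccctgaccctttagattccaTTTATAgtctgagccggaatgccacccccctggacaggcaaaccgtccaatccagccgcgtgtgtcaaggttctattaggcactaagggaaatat
Mylpf: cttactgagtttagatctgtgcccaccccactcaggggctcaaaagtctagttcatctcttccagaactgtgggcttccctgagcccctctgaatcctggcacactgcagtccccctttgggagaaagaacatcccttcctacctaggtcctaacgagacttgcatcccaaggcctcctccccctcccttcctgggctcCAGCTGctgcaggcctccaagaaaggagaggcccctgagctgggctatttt
Myl3: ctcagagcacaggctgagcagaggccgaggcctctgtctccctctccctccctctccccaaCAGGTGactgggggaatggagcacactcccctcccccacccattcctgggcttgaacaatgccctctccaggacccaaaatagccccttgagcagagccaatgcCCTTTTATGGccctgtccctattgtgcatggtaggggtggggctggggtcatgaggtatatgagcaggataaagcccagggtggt
Each window held 1 E-box, starting 224 bases before the start in Myl1, 51 in Mylpf and 189 in Myl3, and the same 6 letters, CAGCTG, occurred in Myl1 and Mylpf. Of all 32851 windows in the table, 66.2% held an E-box, so its presence does not set these genes apart. The Myl3 window had a CArG box 85 bases before the start, a motif found in 1.47% of windows, and the Myl1 window had TATAAA on the opposite strand, found in 12.4%. No MEF2 match lay in these 3 windows, against 2.92% of all windows with one. No CArG box lay in the Myl1 and Mylpf windows, which concerns only the letters in these windows. The motif did not follow the slow chains: neither window of Myl2 held one, whereas a window of Myl6 did, 50 bases before its start.

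The light chains of fast fibres were bright and steady on all arrays. Myl1 read 13.88, 13.79 and 13.85 in control replicates 1 to 3 and 13.74, 13.94 and 13.87 in MLC-SOCS-3 replicates 1 to 3. The groups overlapped, with both the lowest and the highest Myl1 value on arrays labelled MLC-SOCS-3. The difference, MLC-SOCS-3 minus control, was 0.01 ± 0.08 (SE) with a 95% interval from -0.18 to 0.20 (limma, adjusted p = 0.99). At the ends of this interval the change would be 1.13-fold lower or 1.15-fold higher. The probe set does not separate the 2 proteins known to be made from Myl1, a long and a short form with separate starts.

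Mylpf, the regulatory chain that Mylk2 phosphorylates in fast fibres, varied least of the 9 genes. It read 13.73, 13.71 and 13.71 in controls and 13.68, 13.73 and 13.66 on the other arrays, with a range of 0.08 over the 6 arrays. The groups overlapped. The difference was -0.03 ± 0.06 (SE), with an interval from -0.17 to 0.12 (limma, adjusted p = 0.96). Both genes lay more than 7 log2 units above the median probe set, where array intensities are compressed and a fold change is understated.

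Myl3 and Myl2, the chains shared by slow fibres and the ventricle, varied most among the 9 genes, and they did so within each group. Myl3 read 10.46, 9.22 and 10.32 in controls 1 to 3 and 10.01, 9.96 and 9.63 on MLC-SOCS-3 replicates 1 to 3. Control replicate 2 was the lowest of the 6 arrays and control replicate 1 the highest, a 2.36-fold range within a single group that encloses every MLC-SOCS-3 value. The group means were 9.998 ± 0.68 (SD, n = 3) and 9.87 ± 0.21 (SD, n = 3). The difference of -0.13 ± 0.34 (SE; limma, adjusted p = 0.97) had an interval from -0.95 to 0.70. Its direction rested on single arrays: it was -0.52 without control replicate 2, but 0.10 without control replicate 1 and 0.03 without control replicate 3.

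Myl2, the slow and ventricular regulatory chain, lay only 0.36 above the median probe set. It read 6.43, 6.22 and 7.11 in controls and 6.03, 6.54 and 5.78 on the arrays labelled MLC-SOCS-3. Control replicate 3 was highest and MLC-SOCS-3 replicate 3 lowest, and MLC-SOCS-3 replicate 2 lay above 2 of the 3 controls. The difference of -0.47 ± 0.29 (SE) had an interval from -1.17 to 0.24 and did not pass (limma, adjusted p = 0.86). Its lower end corresponds to a 2.26-fold lower level, a far wider bound than for Myl1. The highest array differed between these 2 chains, control replicate 1 for Myl3 and control replicate 3 for Myl2. Control replicate 3 was the next highest for Myl3.

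The spread of Myl2 and Myl3 was large beside that of other genes. Their pooled within-group SD was 0.43 and 0.50, higher than that of 99.3% and 99.5% of the 11409 genes above the median level. Mylpf, at 0.03, was higher than 3.74% of them. Myl1 (0.08), Myl4 (0.09) and Mylk2 (0.09) lay near the median gene, whose SD was 0.09. Of the 9 genes, 7 had a larger SD on the arrays labelled MLC-SOCS-3 than in controls, all but Myl2 and Myl3; of all genes, 50.4% did.

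**Figure D1:**
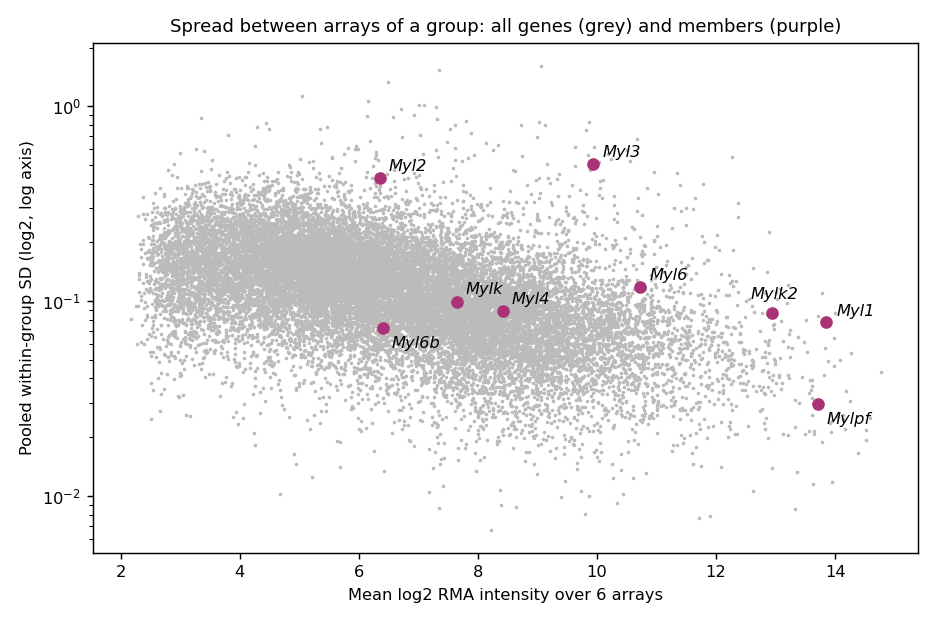
Pooled within-group SD (log2, on a log axis) against mean log2 intensity over 6 arrays for 19938 genes (grey points) and the 9 light chain and kinase genes (purple points). Myl2 at 0.43 and Myl3 at 0.50 lie at the upper edge of the cloud and Mylpf at 0.03 in its lower part; the SD falls with the level over the whole table.

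**Figure D2:**
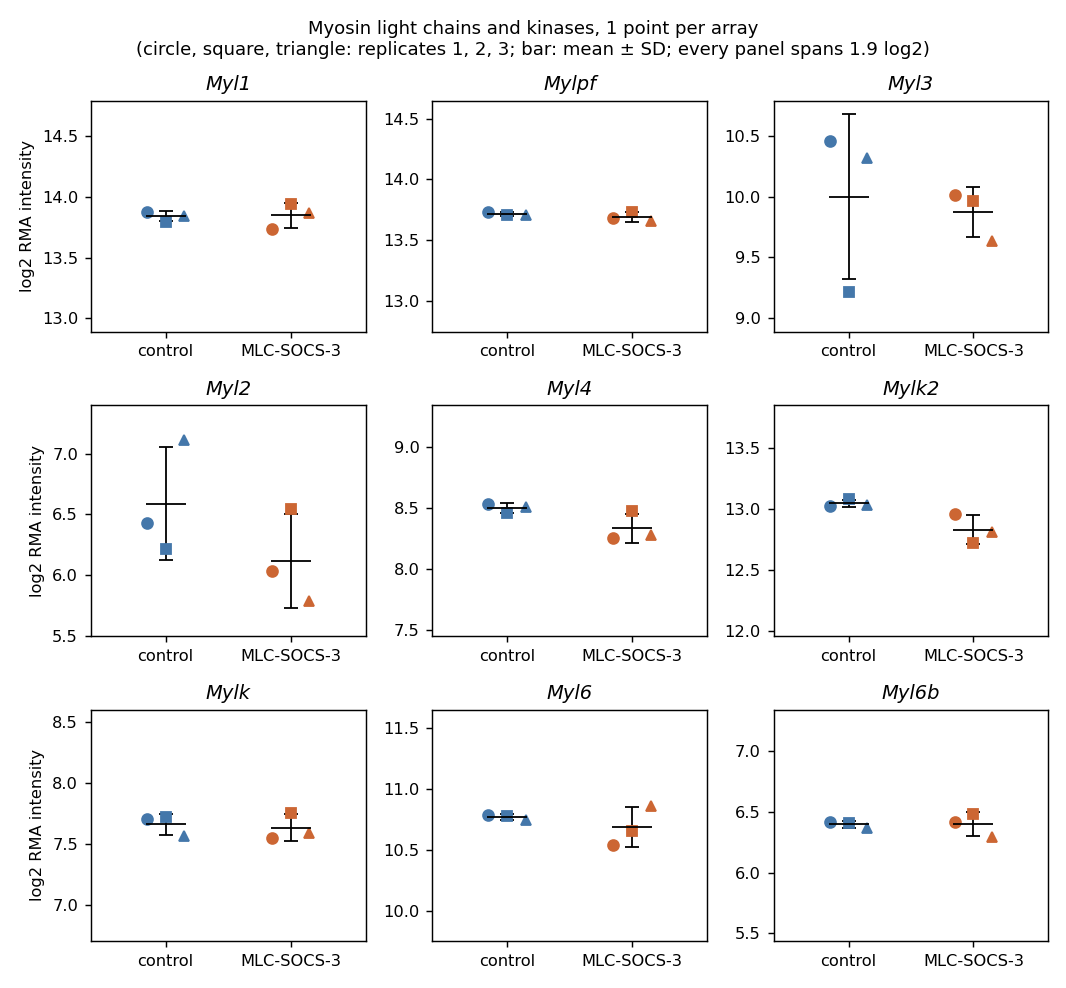
Log2 RMA intensity of the 9 genes on the 3 control arrays (blue) and the 3 arrays labelled MLC-SOCS-3 (orange), with mean and SD as black bars; circle, square and triangle are replicates 1, 2 and 3, and every panel spans the same number of log2 units. The groups overlap in 8 panels, and in the Mylk2 panel the 3 MLC-SOCS-3 points lie below the controls.

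The ratio of slow to fast light chain signal within an array removes a scaling only if it acts alike on both pairs. Myl1 and Mylpf, whose intensities are compressed, ranged over only 0.20 and 0.08, so the ratio mostly repeats Myl2 and Myl3. The mean of Myl2 and Myl3 less the mean of Myl1 and Mylpf was -5.36, -6.03 and -5.06 in controls and -5.69, -5.59 and -6.06 on the arrays labelled MLC-SOCS-3. The groups overlapped, and their means differed by -0.29, beside an SD of 0.50 among controls and 0.25 on the arrays labelled MLC-SOCS-3. No test was made of this combined value. Its negative sign depends on the probes, and only its change between arrays can be read.

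Genes with a profile like that of Myl3 or Myl2 over the 6 arrays were sought by the root mean square difference between centred profiles, among 11400 other genes above the median level. Nearest to Myl3 were Ankrd34a (0.21), Otub2 (0.21), Slc35e3 (0.22) and Aplnr (0.22), of which Otub2 encodes a deubiquitinase and Aplnr the apelin receptor. Aplnr, for example, read 8.45, 6.97 and 7.99 in controls and 7.76, 7.91 and 7.96 on the arrays labelled MLC-SOCS-3, also with its lowest value on control replicate 2. Nearest to Myl2 were Gdap1 (0.21), 1190007I07Rik (0.23), Lrmda (0.24) and Plekhh3 (0.24). Gdap1, a protein of the outer mitochondrial membrane, read 7.19, 6.62 and 7.33 in controls and 6.43, 6.88 and 6.54 on the other arrays. Myl2 and Myl3 themselves deviated from their own means by 0.42 and 0.41 on the same measure, which is how far a flat profile would lie from each. None of the 8 genes is in the slow fibre list, but that list holds only 11 genes, so this absence says little. The 8 were picked as the closest of 11400 profiles over only 6 arrays, and a close match by itself shows no link.

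**Figure D3:**
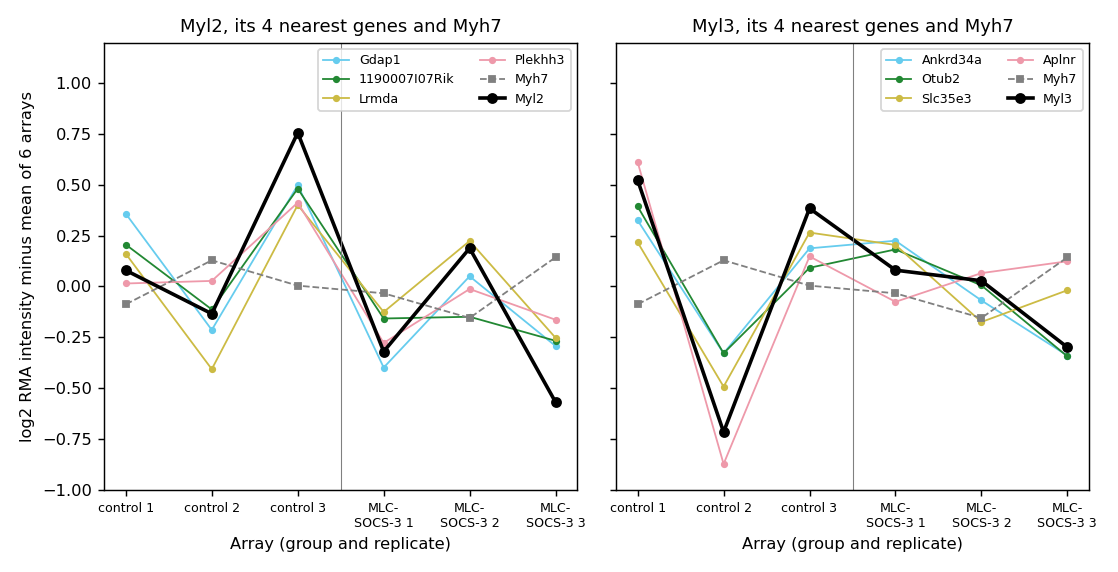
Log2 RMA intensity minus each gene's mean over the 6 arrays, for Myl2 (left) and Myl3 (right) in black, their 4 nearest genes in colour and Myh7 in dashed grey; lines only join the values of a gene, and arrays of a group have no order. Myl3 and its 4 neighbours, which were picked for similar profiles, are low on control replicate 2, while Myh7, which lay near the median probe set, is not.

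The slow heavy chain gene Myh7, whose product binds both Myl2 and Myl3, read 6.19, 6.40 and 6.28 in controls and 6.24, 6.12 and 6.42 on the arrays labelled MLC-SOCS-3. It was above its mean on control replicate 2, where Myl3 was lowest. Myh7 lay only 0.28 above the median probe set, however, and weak signals are compressed, so a drop could be missed. Of the 11 slow fibre genes, 5 had positive and 6 negative differences, with a median of -0.01 beside -0.02 over all genes, and none passed over all probe sets. The calcineurin-binding protein gene Myoz2 differed by -0.52 ± 0.21 (SE; limma, adjusted p = 0.83), with all 3 arrays labelled MLC-SOCS-3 below the controls. Its 10.23 on control replicate 1 coincided with the highest Myl3 value, and without that array the difference was -0.28. Slow troponin T, Tnnt1, differed by -0.21 ± 0.09 (limma, adjusted p = 0.83), also with all 3 arrays labelled MLC-SOCS-3 below the controls. Such a separation was found in 7.76% of all genes. The smallest p of the list belonged to a gene of the opposite direction, Mybpc1, the gene of the slow form of myosin-binding protein C. With a mean of 13.2 it was the brightest of the list, and bulk tissue does not show which fibres its signal came from. Mybpc1 read 13.11, 13.06 and 13.06 in controls and 13.34, 13.34 and 13.32 on the MLC-SOCS-3 arrays, above every control. The groups did not overlap, with a difference of 0.26 ± 0.06 (SE; limma, adjusted p = 0.75). Of all 19938 genes, 12.3% were separated in either direction and 901 genes in this upward one. Pln, an inhibitor of the calcium pump of slow fibres, differed by 0.21 ± 0.11 (limma, adjusted p = 0.86).

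The partners of Myl1 and Mylpf in fast fibres gave no called gene. Of the 11 fast fibre genes, 2 differences were positive and 9 negative, none passed, and the median was -0.02. Their means lay between 12.0 and 14.5 and those of the slow fibre genes between 6.22 and 13.2. Myh2, the heavy chain of fast oxidative fibres, stood at 12.52 on control replicate 1 and between 11.85 and 12.01 on the other 5 arrays. Of the 14 heavy chain genes, 6 had positive and 8 negative differences and none passed. Myh7b, a slow-type heavy chain gene, differed by -0.20 ± 0.09 (SE) and smooth muscle Myh11 by 0.16 ± 0.09, with adjusted p-values in limma of 0.83 and 0.86.

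Myl4, the embryonic and atrial essential chain, lay 2.43 above the median probe set in this adult muscle. It read 8.54, 8.46 and 8.51 in controls and 8.26, 8.48 and 8.28 on the arrays labelled MLC-SOCS-3. MLC-SOCS-3 replicates 1 and 3 were below every control, and replicate 2 lay among them. The difference was -0.16 ± 0.08 (SE), with an interval from -0.36 to 0.03 (limma, adjusted p = 0.85). Of 12 genes of developing and regenerating muscle, 3 differences were positive and 9 negative, with a median of -0.03 and none called. Myod1, a myogenic transcription factor, had the smallest p of these, with a difference of -0.48 ± 0.18 (SE; limma, adjusted p = 0.82). The embryonic heavy chain Myh3 read between 5.59 and 5.92 over the 6 arrays, near the median probe set.

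Mylk2, the calcium- and calmodulin-dependent kinase of skeletal muscle, was the only one of the 9 genes whose groups did not overlap. It read 13.03, 13.08 and 13.04 in controls and 12.96, 12.73 and 12.81 on the arrays labelled MLC-SOCS-3. All 3 labelled transgenic arrays lay below all 3 controls, replicate 1 by the least. The difference was -0.22 ± 0.08 (SE), a 1.16-fold lower intensity, with an interval from -0.41 to -0.02. After adjustment it did not pass (limma, adjusted p = 0.82 over all probe sets, unadjusted p = 0.036). In the same comparison limma called 0 of 35557 probe sets (0%) and 2105 had an unadjusted p under 0.05, while 4.86% of genes had an unadjusted p under 0.05 and 7.76% had all MLC-SOCS-3 arrays below all controls. The 9 genes had 1 gene in each of these classes, a share near that background. Relative to its substrate Mylpf on the same array, Mylk2 was at -0.71, -0.63 and -0.67 in controls and -0.72, -1.01 and -0.85 on the other arrays, so MLC-SOCS-3 replicate 1 was then close to control replicate 1.

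Mylk, the kinase of smooth muscle and non-muscle cells, read 7.70, 7.72 and 7.56 in controls and 7.55, 7.76 and 7.59 on the arrays labelled MLC-SOCS-3. The groups overlapped, with the highest and the lowest value both on MLC-SOCS-3 arrays. The difference was -0.03 ± 0.09 (SE; limma, adjusted p = 0.97). Markers of smooth muscle and pericytes, cells in which Mylk is known to act, had a summed level between 96.2 and 97.1 in controls and between 96.2 and 96.9 on the arrays labelled MLC-SOCS-3. Of these 12 markers, 4 differences were positive and 8 negative, with a median of -0.01. No marker was called, and all 12 lay above the median probe set, with Acta2 between 10.37 and 10.68.

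**Figure D4:**
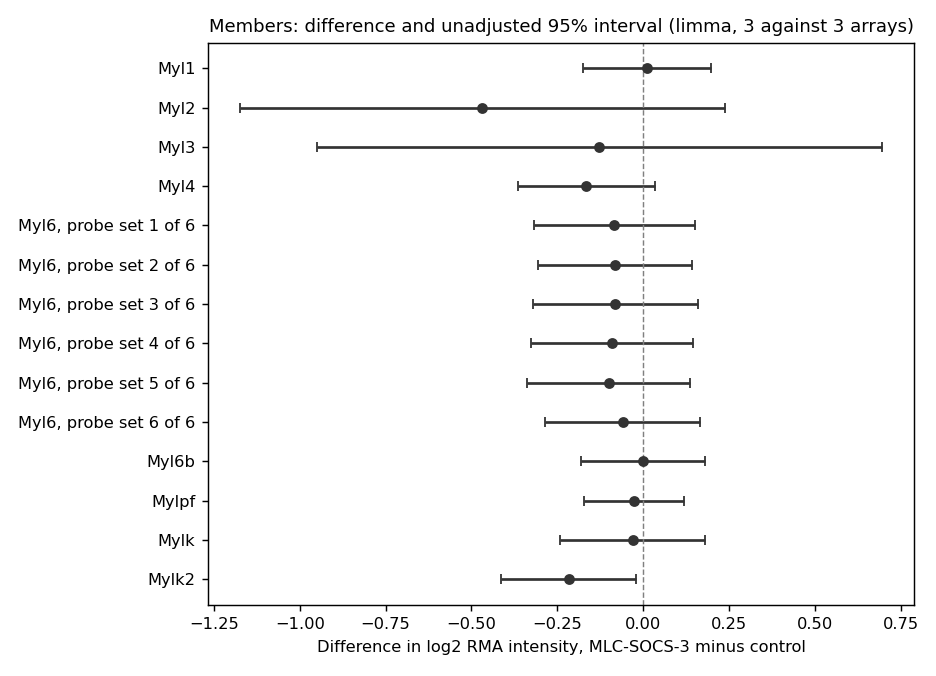
Difference in log2 RMA intensity, MLC-SOCS-3 minus control (points), with unadjusted 95% intervals (bars) for the 14 probe sets of the 9 genes. The interval of Mylk2, from -0.41 to -0.02, lies below 0 before adjustment, the intervals of Myl2 and Myl3 are the widest, and the 6 probe sets of Myl6 give nearly the same value.

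Myl6, the essential chain of smooth muscle and non-muscle myosin, read 10.79, 10.78 and 10.75 in controls and 10.54, 10.66 and 10.87 on the arrays labelled MLC-SOCS-3. The controls were close together, MLC-SOCS-3 replicates 1 and 2 lay below them and replicate 3 above. The difference of -0.08 ± 0.10 (SE) did not pass (limma, adjusted p = 0.91), and it was -0.17 without MLC-SOCS-3 replicate 3 and -0.0096 without replicate 1. All 6 Myl6 probe sets were lowest on MLC-SOCS-3 replicate 1 and highest on replicate 3, with differences between -0.10 and -0.06. They are not independent measurements, since the annotation assigns the same RefSeq transcript to all 6 and near-identical copies of the gene may share their probes.

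Myl6b, a related essential chain whose gene lies next to Myl6 on chromosome 10, read 6.42, 6.41 and 6.37 in controls and 6.42, 6.49 and 6.29 on the arrays labelled MLC-SOCS-3. The groups overlapped. The difference was -0.001 ± 0.07 (SE; limma, adjusted p = 0.999), and it was 0.02 when each array was centred on its median. Myl6b lay 0.41 above the median probe set, and it did not follow the Myl6 pattern, since its lowest value was on MLC-SOCS-3 replicate 3.

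Over the 9 genes, 1 difference was positive and 8 were negative, with a median of -0.08; of all 19938 genes, 8728 were positive and 11210 negative, with a median of -0.02. None of the 9 rose or fell by the test over all probe sets, and their adjusted p-values lay between 0.82 and 0.999.

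The remaining light chains and kinases did not pass either. Of the 7 genes, 4 differences were positive and 3 negative, with a median of 0.03 and no group separation (limma, adjusted p between 0.91 and 0.999). Mylk4, a further kinase gene with a high intensity here, read 12.76, 12.85 and 12.83 in controls and 13.01, 12.82 and 12.82 on the arrays of the other group, a difference of 0.07 ± 0.08 (SE). The regulatory chain of non-muscle myosin, Myl12a, differed by 0.09 ± 0.10 and that of smooth muscle, Myl9, by -0.06 ± 0.10. The atrial regulatory chain Myl7 read between 5.43 and 5.68 and the cardiac kinase Mylk3 between 4.82 and 5.37, both below the median probe set on every array. Of 8 cardiac markers, 3 lay above it. The natriuretic peptide gene Nppb differed by -0.26 ± 0.09 (limma, adjusted p = 0.81) and cardiac troponin I, Tnni3, by -0.32 ± 0.14 (limma, adjusted p = 0.83). Their means, 5.45 and 5.81, lay below the median probe set.

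Genes that set light chain phosphorylation are calmodulins, the phosphatase with its targeting subunits and inhibitors, and further kinases that act on the light chain or the phosphatase. The list used here also holds Mylip, which is none of these and is counted below. Of the 19 genes listed, 17 were measured, each by a probe set of its own. The others were not analysed here. Of the 17, 6 differences were positive and 11 negative, with a median of -0.01, and none passed. In 3 the groups did not overlap, where 12.3% of all genes were separated in either direction. Ppp1r14b, an inhibitor of myosin phosphatase, read 10.47, 10.54 and 10.41 in controls and 10.29, 10.36 and 10.31 on the arrays labelled MLC-SOCS-3. It was lower on all 3, by a difference of -0.15 ± 0.07 (SE; limma, adjusted p = 0.83).

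The 2 separated upwards were Ppp1r12a, the targeting subunit of the phosphatase in smooth muscle and many other cells, and Rock1, a kinase that inhibits this phosphatase. Ppp1r12a read 8.15, 8.09 and 8.10 in controls and 8.18, 8.18 and 8.27 on the arrays of the other group, a difference of 0.10 ± 0.06 (SE). Rock1 read 7.73, 7.80 and 7.81 in controls and 7.82, 7.86 and 7.98 on the others, a difference of 0.11 ± 0.07. In both genes the gap between the highest control and the lowest labelled transgenic array was smaller than the SE, and neither passed limma's test (adjusted p = 0.86 for both). Ppp1r12b, the targeting subunit of striated muscle, had means that differed by -0.01 ± 0.07, and Ppp1cb, the catalytic subunit of the phosphatase, by 0.04 ± 0.06.

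**Figure D5:**
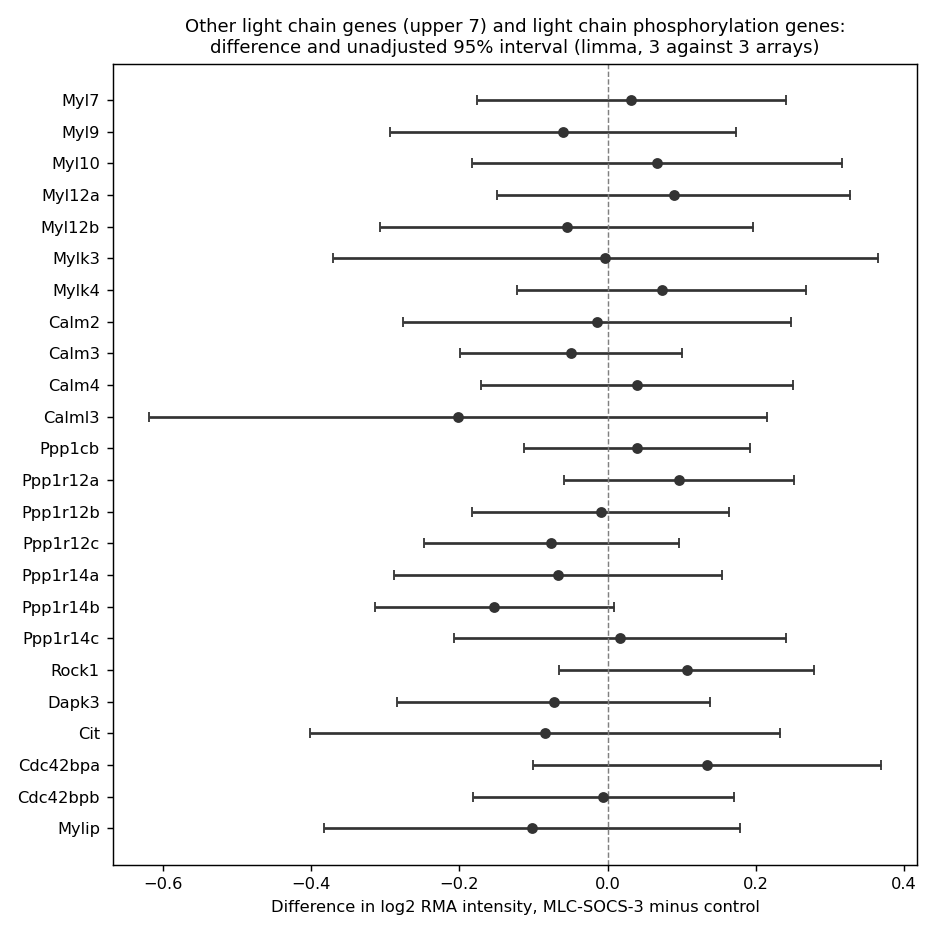
Difference in log2 RMA intensity, MLC-SOCS-3 minus control (points), with unadjusted 95% intervals (bars), for 7 other light chain and kinase genes (upper rows) and 17 genes listed for light chain phosphorylation, Mylip among them (lower rows). All 24 intervals include 0, and that of Ppp1r14b comes closest to excluding it.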

How the data were processed

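Expression in tibialis anterior was measured in 6 samples, 1 Affymetrix array each, grouped by their titles into 3 control and 3 MLC-SOCS-3 samples. The authors' deposited values are log2 intensities per probe set; the submitters' processing notes name RMA and Affymetrix Expression Console. Versions and the genome build are not stated there. This method corrects background, equalises the arrays' distributions and summarises probes. Weak and very strong signals are compressed in array values. Array medians lay between 5.98 and 6.04, so values were used as deposited. Their number of arrays limits the precision, and at most 36 values were identical between any pair of arrays.

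Groups were compared with limma 3.58.1 in R 4.3.3 (lmFit, eBayes, two-sided) over all 35557 probe sets, with Benjamini-Hochberg adjustment and a threshold of 0.05; intervals are unadjusted. Named were the 9 genes, up to 4 genes per list with the smallest p, list genes whose level checks the tissue, and the 4 nearest profiles of each of the 9 genes that lay above the median probe set and ranged over at least 0.5 log2. Myh7, Ppp1r12b, Ppp1cb, Myl7 and Mylk3 were named as partners after their values were seen. The genes and lists were chosen with earlier results of these data known. Alternatives were median centring, trended robust moderation, fewer probe sets, a replicate block and leaving out each array. Tested on simulated data for this comparison (35557 probe sets), limma called 167 to 182 of 200 2-fold changes in 5 simulations, with at most 16 false calls. The simulated noise was normal and independent, with the spread limma estimated for each probe set, and only probe sets above the median level were changed. These counts give no rate for genes as variable as Myl2 and Myl3.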

Additional observations from a re-analysis of the deposited data

How the results depend on the processing

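None of the 9 genes was called in any alternative (113 values, lowest adjusted p in limma 0.72), and 9 of these 113 values turned direction. Centring each array on its median turned Myl6b, to 0.019. Leaving out single arrays gave ranges that crossed 0 for Myl1 (-0.035 to 0.066), Myl3 (-0.52 to 0.10), Myl6b (-0.044 to 0.053) and Mylk (-0.092 to 0.013). Myl2 stayed between -0.68 and -0.21, and Mylk2 between -0.28 and -0.16 without any 1 array, the latter with adjusted p-values of 0.72 to 0.98. Of all probe sets, limma called 1 (Casp12) when 1 probe set per gene was tested, where the adjustment runs over fewer tests, and 0 to 1 without single arrays. The called one, without control replicate 2, was an unnamed probe set; the cause was not tested. The slow to fast light chain contrast stayed negative without any 1 array, between -0.56 and -0.08. With a replicate block, limma called 0 probe sets (2033 at an unadjusted p under 0.05, against 2105 without it). Mylk2 then had an adjusted p of 0.87 in limma. Deviations from the group mean correlated at -0.03, -0.02 and -0.04 between same-numbered arrays and between -0.04 and 0.06 for differently numbered ones. These correlations do not settle whether the numbers pair arrays, which the labels do not state. Alternatives that drop probe sets below the median level or outside the annotation kept all 9 genes. The 3 arrays a group and the spread of Myl2 and Myl3 limit what could be seen for these genes.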

Other observations

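Genes of the developmental and slow lists that varied as widely as Myl2 and Myl3 were picked after their values were seen. Actc1, the cardiac alpha-actin also made in developing skeletal muscle, read 12.54, 11.81 and 12.51 in controls and 11.60, 12.91 and 12.26 on the arrays of the MLC-SOCS-3 group. Csrp3, a Z-disc protein of slow fibres and heart, read 10.67, 9.13 and 9.20 in controls and 9.51, 9.69 and 10.64 in the other group. Ankrd1, a stretch-responsive sarcomere protein, read 10.07, 9.54 and 8.66 in controls and 9.26, 10.53 and 11.09 in the other group. In each of the 3 genes the groups overlapped, and none was called by limma (adjusted p = 0.99, 0.95 and 0.86). The arrays that were high differed between these genes: Csrp3 was highest on control replicate 1, as Myl3 was, Actc1 on MLC-SOCS-3 replicate 2 and Ankrd1 on MLC-SOCS-3 replicate 3.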
